A study of Homo sapiens with 36 samples.

Results

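RNA labelled for crosslinking to protein was compared between HEK293 cells carrying an inducible FLAG-tagged SCAF8 construct and their parental cells. It came from soluble and chromatin extracts taken before the FLAG pull-down. HEK293 is a human embryonic kidney cell line, and the Flp-In T-REx derivative used here accepts a construct at a single integration site and expresses it when doxycycline is added. Members were chosen by name: the 3 cluster lists of the FLAG-SCAF8 input and the 3 lists of the parental input, paired by replicate number, which come from 12 of the 36 samples of the series and make 6 of its 18 lists. Both groups were labelled with the uridine analogue 4-thiouridine (4SU), at 100 µM overnight and 500 µM for another 2 h, and irradiated at 365 nm with 2000 J/m2. The FLAG-SCAF8 cells were induced with doxycycline, for which the labels give 100 ng/mL and the methods text a different concentration that also covers the parental cells, so the induction of the parental cells cannot be settled from these sources. Soluble and chromatin extracts of a replicate were combined by the authors into 1 list, and the construct is a SCAF8 cDNA in a stable line, beside the endogenous gene.

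A cluster is a stretch of the GRCh38 genome where aligned reads carry T-to-C changes, the mark that crosslinked 4SU leaves after reverse transcription. The 6 lists held 50655 of the 278185 clusters of the series. The FLAG-SCAF8 input lists held 9146, 10361 and 9008 clusters in replicates 1, 2 and 3, and the parental lists 12493, 4567 and 5080. The lists give positions and not read numbers, so the depth behind a cluster is unknown and a value below is a number of places, not an amount of RNA. Fewer copies of an RNA and less crosslinking per copy cannot be told apart. FLAG-SCAF8 replicate 1 stood apart from replicates 2 and 3 of its line in several measures below, so the intron, coding exon and 3' UTR shares, the exon to intron balance and the gene calls are also given without replicate 1 of either line. Replicate 1 of both lines was sequenced with longer reads.

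SCAF8 is a nuclear RNA-binding protein with a CTD-interaction domain (CID), a fold that binds the phosphorylated C-terminal repeats of RNA polymerase II. The family that carries this domain includes SCAF4, PCF11 and the RPRD proteins and is known for roles in transcription termination and RNA processing. An input was not selected for RNA bound to protein, and its crosslinks can be to any protein of the extracts. The paper states that crosslinking raises the frequency of T-to-C changes, so labelled RNA without a crosslink can also add to input clusters. Introns mark unprocessed or recently made RNA, while coding exons and 3' UTRs are found in both precursor and mature mRNA.

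The sequences under the clusters that came back in every FLAG-SCAF8 input and in no parental input are shown first for SCAF8 itself, because they lay exon by exon in the coding sequence. Each is 30 nt around the middle of the stretch shared by the clusters, on the plus strand of chromosome 6 (GRCh38), 5′ to 3′, with T in capitals, the bases that can be read as T-to-C after 4SU crosslinking.
exon 7, chr6:154802054-154802083: TgTTcagTTgcaagcTcTTacggcacaacT
exon 9, chr6:154805415-154805444: gcagaacaacTacaacagcaaaaccTagaa
exon 12, chr6:154810088-154810117: cgcTcaagagaaagaaagaggaaaTcaTca
exon 15, chr6:154820240-154820269: ggagTTacaTaTaTaccaTgggaaaaagTT
exon 16, chr6:154822318-154822347: TccagacaacTcagagcccaacTccagTTg
exon 17, chr6:154824276-154824305: ccagcaTTTccTgTgTcgaTgccggTTccT
exon 19, chr6:154831014-154831043: aaTcTTgcTacTTccgcTcTgccagcTgga
These windows differed widely in T, from 2 of 30 bases in exon 9 to 10 of 30 in exon 17.

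SCAF8 checks the labels, since the FLAG-SCAF8 cells carry its cDNA. The gene (ENSG00000213079.10, chr6:154733378-154834244, plus strand, 20 exons in its longest isoform) had 11, 16 and 16 clusters with their midpoint in coding exons in FLAG-SCAF8 inputs 1, 2 and 3, and 1, 0 and 0 in the parental inputs. All 3 FLAG-SCAF8 lists were far above all 3 parental lists, at the smallest p that 3 against 3 allows (two-sided exact permutation test, p = 0.1). This count of coding clusters was not among the planned measures. These clusters covered 59.9%, 88.6% and 88.8% of the 3813 coding nt in FLAG-SCAF8 inputs 1, 2 and 3, against 4.93% in parental input 1 and 0% in inputs 2 and 3. Exons 7, 9, 12, 15, 16, 17 and 19 held a cluster in all 3 FLAG-SCAF8 inputs and in no parental input, and exon 20 in all 3 FLAG-SCAF8 and 2 parental inputs. Exons 1, 2, 3 and 18 held none in any of the 6 lists. Of these, exons 2, 3 and 18 measure 84, 45 and 69 nt, and exon 1 has 30 coding nt. Exons 4, 5, 6, 8, 10, 11, 13 and 14 were covered in FLAG-SCAF8 inputs 2 and 3 and not in input 1.

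**Figure D1:**
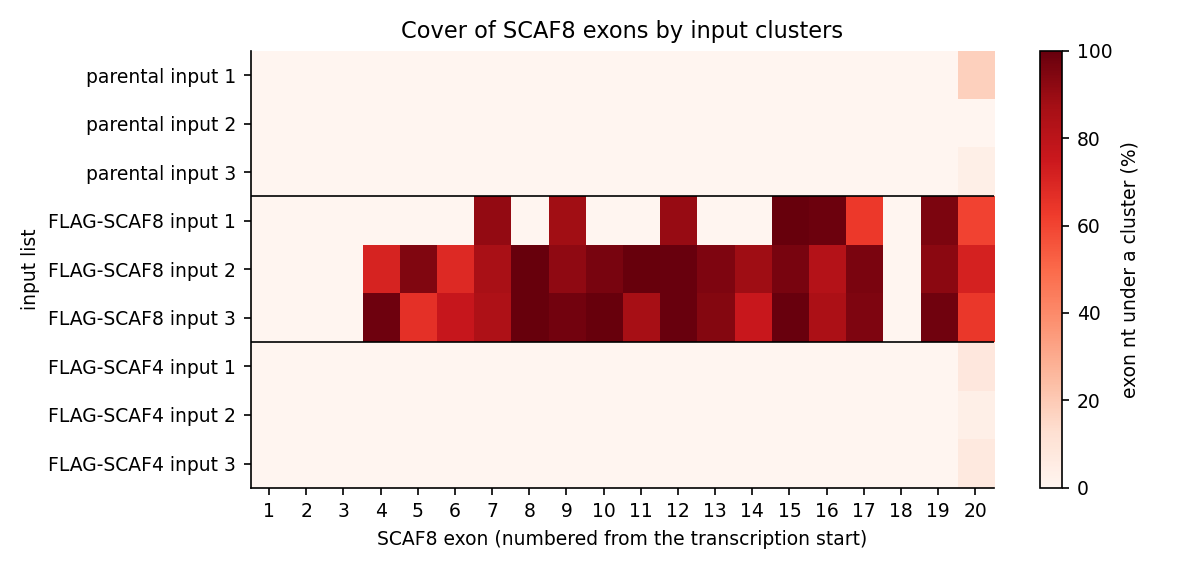
Share of each SCAF8 exon (x axis, exon number) that lay under a cluster, in percent (colour), in each input list (rows). The exons from 4 onward, except 18, were covered in FLAG-SCAF8 inputs 2 and 3 and in part in input 1, while the parental and FLAG-SCAF4 inputs showed cover in exon 20 alone.

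Of the coding clusters of SCAF8, 3 of 11, 5 of 16 and 9 of 16 in FLAG-SCAF8 inputs 1, 2 and 3 (27.3%, 31.2% and 56.2%) ran past an exon edge, by at most 17 nt. Among the coding exon clusters of all other genes in the same lists 42.1%, 31.3% and 32.9% did. In FLAG-SCAF8 inputs 1, 2 and 3, 1, 1 and 0 SCAF8 clusters had their midpoint in the 3' UTR. The last cluster with its midpoint in coding sequence ended 2, 15 and 4 nt past the last sense codon in these inputs. Of the 829 nt of 3' UTR that follow, clusters covered 15%, 21.5% and 0.483% in the FLAG-SCAF8 inputs and 26.4%, 0% and 10% in the parental inputs, so the groups overlapped there. Intron clusters of SCAF8 numbered 6, 3 and 2 in the FLAG-SCAF8 inputs and 8, 3 and 4 in the parental inputs, which also overlapped. The FLAG-SCAF4 inputs, from a sister line with a SCAF4 cDNA, held 0, 0 and 1 coding clusters of SCAF8. By itself, a coding exon cluster cannot tell RNA of the cDNA from spliced RNA of the endogenous gene. An aligner without splicing places both in exons. The gain lay in coding exons, while 3' UTR cover and intron clusters of SCAF8 overlapped between the lines. Which RNA the clusters came from was not tested.

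Counted over the whole gene, SCAF8 had 10, 3 and 5 clusters in parental inputs 1, 2 and 3 and 18, 20 and 18 in the FLAG-SCAF8 inputs. Its log2 difference in clusters per 10000 genic clusters of the list, with 0.5 added to each number, was 1.17 ± 0.37 (SE, n = 3 a group, limma adjusted p = 0.328), so it did not pass; with the replicate number as a block the adjusted p from limma was 0.0438. With exonic clusters alone, a count added after its values were seen, the log2 difference was 2.72 ± 0.47 (limma adjusted p = 0.000181) and SCAF8 was the only gene of 737 called higher. Among the highest-scoring 4567 clusters of each list the whole-gene difference was -0.11, and the mean difference in its coding clusters was 1.33, against 14 in the full lists.

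Over all clusters, the FLAG-SCAF8 inputs held a smaller share in introns and a larger share in 3' UTRs than the parental inputs. Introns, of coding and noncoding genes together, took 41.5%, 28.9% and 29.6% of the clusters in FLAG-SCAF8 replicates 1, 2 and 3 and 47%, 44.8% and 47.5% in the parental replicates. No FLAG-SCAF8 list reached the lowest parental list, and the lists of replicate 1 were the closest. These shares follow the longest isoform. With exons of any isoform counted they were 33.9%, 22.9% and 23.3% against 39.4%, 37.2% and 38.7%, also without overlap. Among the 4567 highest-scoring clusters of each list the intron shares overlapped, at 48.6%, 31.9% and 35.8% against 47.6%, 44.8% and 48.5%, with replicate 1 of FLAG-SCAF8 the highest of all 6 lists (mean difference -8.23 percentage points, exact permutation p = 0.4). The 3' UTR share was 25.2%, 24.1% and 25.7% in the FLAG-SCAF8 inputs and 20.6%, 16.5% and 15.3% in the parental inputs, again without overlap. Mean differences were -13.1 percentage points for introns and 7.54 for 3' UTRs, each at the smallest p this design allows (two-sided exact permutation test, p = 0.1, and p = 0.5 after Benjamini-Hochberg adjustment over the 15 list measures). Without replicate 1 of either line they were -16.9 and 9.01. Within replicate numbers, a replicate block, both differences over the full lists had 1 sign in 3 of 3 pairs (exact sign-flip p = 0.25, the smallest for 3 pairs).

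**Figure D2:**
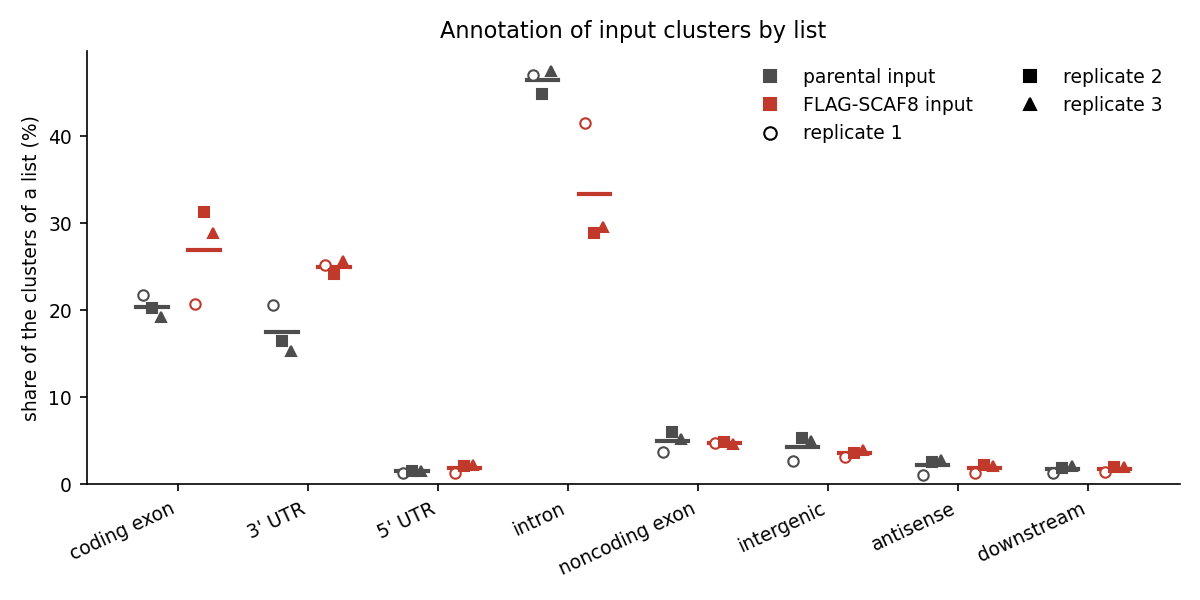
Share of the clusters of each list, in percent, by annotation class (x axis). Points are the 3 replicates of each line and bars their means; intron shares lay lower and 3' UTR shares higher in all 3 FLAG-SCAF8 inputs, while FLAG-SCAF8 replicate 1 had the coding exon share of a parental list.

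The coding exon share separated replicates within the FLAG-SCAF8 line. It was 20.7%, 31.3% and 28.9% in FLAG-SCAF8 replicates 1, 2 and 3 and 21.7%, 20.3% and 19.3% in the parental replicates. Replicate 1 lay within the parental range, and replicates 2 and 3 lay above it (mean difference 6.55 percentage points, exact permutation p = 0.2). The difference was 10.3 without replicate 1, 4.3 without replicate 2 and 3.69 among the 4567 highest-scoring clusters. The 5' UTR share was 1.28%, 2.16% and 2.2% in the FLAG-SCAF8 inputs and 1.37%, 1.58% and 1.58% in the parental inputs, with overlap (p = 0.4, exact permutation test). The 3' UTR part of the exonic mRNA clusters was 46.8% ± 5.92 (SD, n = 3) in the FLAG-SCAF8 inputs and 44.2% ± 2.61 in the parental inputs (exact permutation p = 0.7). Noncoding exons, long noncoding RNAs, the 2000 nt downstream of genes, antisense and intergenic sites overlapped between the lines, with exact permutation p from 0.4 to 1. Clusters that cross an exon edge made up 12.1%, 12.5% and 12% of the FLAG-SCAF8 lists and 12.6%, 9.31% and 8.72% of the parental lists (exact permutation p = 0.4).

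The ratio of exonic to intronic clusters puts the balance in 1 value. Its log2 was 0.33, 1.12 and 1.05 in FLAG-SCAF8 replicates 1, 2 and 3 and 0.01, -0.01 and -0.20 in the parental replicates. By the longest isoform, the parental extracts held about as many intronic as exonic clusters, and all 3 FLAG-SCAF8 extracts held more exonic ones. That level depends on the annotation. With exons of any isoform counted, the log2 was 0.82, 1.58 and 1.54 in the FLAG-SCAF8 replicates and 0.48, 0.48 and 0.38 in the parental replicates. The mean difference was 0.90 on the log2 scale (two-sided exact permutation p = 0.1, adjusted p = 0.5), with 0.31, 1.13 and 1.25 for replicate numbers 1, 2 and 3, and 1.19 without replicate 1. In the 4567 highest-scoring clusters of each list the difference fell to 0.57 and the lines overlapped, since FLAG-SCAF8 replicate 1 stood at -0.08. The shift also showed inside genes: stratified by gene, the log2 odds ratio of an exonic rather than an intronic cluster was 0.31 over 1156 genes in replicate 1, 1.2 over 642 genes in replicate 2 and 1.31 over 684 genes in replicate 3.

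The same balance in the FLAG-SCAF4 inputs, which the choice of lists did not use, was 0.91, 0.86 and 0.80 for replicates 1, 2 and 3. The FLAG-SCAF8 inputs minus the FLAG-SCAF4 inputs gave -0.02 in the mean (two-sided exact permutation p = 1), and 0.25 without replicate 1. The FLAG-SCAF4 inputs minus the parental inputs gave 0.92 (exact permutation p = 0.1), a comparison that shares the parental lists with the one above. The 3' UTR share of the FLAG-SCAF4 inputs was 24.9%, 21.8% and 20%, which overlapped the parental range, and FLAG-SCAF8 exceeded it by 2.76 percentage points in the mean (exact permutation p = 0.2).

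**Figure D3:**
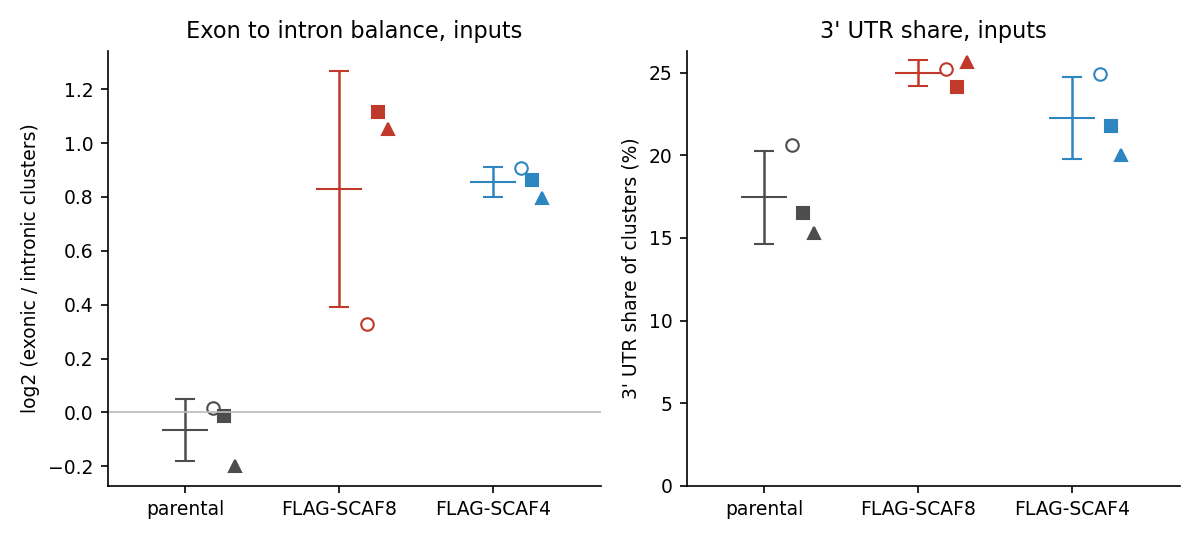
Left, log2 of exonic over intronic clusters per input list; right, 3' UTR share of clusters in percent. Horizontal marks and bars are the mean and SD of 3 lists; circles, squares and triangles are replicates 1, 2 and 3. Both lines with a construct lay above the parental inputs in the left plot, and FLAG-SCAF8 replicate 1 lay lowest among them.

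Other properties of the clusters moved with the replicate number as well as with the line. Median cluster length was 160, 137 and 137 nt in FLAG-SCAF8 replicates 1, 2 and 3 and 148, 126 and 128 nt in the parental replicates, longer by 12, 11 and 9 nt at the same number (exact permutation p = 0.5). The share of T in the cluster sequence was 29.9%, 26.3% and 26.9% in the FLAG-SCAF8 lists and 28.7%, 26.1% and 25.8% in the parental lists. Genes with a cluster numbered 3264, 3763 and 3393 in FLAG-SCAF8 inputs 1, 2 and 3 and 3983, 2039 and 2173 in the parental inputs, and so did not separate the lines (exact permutation p = 0.4). Their part in the class shares was not tested.

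Gene by gene, the clusters were scaled to 10000 genic clusters per list and tested in the 1237 genes with at least 10 clusters over the 6 lists. At a limma adjusted p under 0.05, 0 genes were higher and 0 lower (0%), with 53 higher and 66 lower at an unadjusted p under 0.05. That order turned with the scaling, to 86 higher and 30 lower when lists were scaled by the median ratio of shared genes and to 64 and 12 with no scaling. Without replicate 1 of either line, 2 were called higher and 19 lower. The values did not overlap between the lines in 86 genes that were higher in FLAG-SCAF8 (6.95%) and 78 that were lower (6.31%). With the replicate number as a block, 21 genes were called higher (1.7%) and 34 lower (2.75%) by limma. These calls lean on a variance pooled over genes more than on the spread of the 3 pairs of each gene. The median log2 difference over all genes tested was -0.13, and 0.17 with the median ratio scaling.

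The 5 genes with the smallest p in the upward direction, none of which passed without the block, were RFWD3, ZNF551, MCL1, ZNF644 and PSMD12. RFWD3, a ubiquitin ligase of the DNA damage response on chromosome 16, had 8, 7 and 5 clusters in FLAG-SCAF8 inputs 1, 2 and 3 and 2, 0 and 0 in the parental inputs. Its log2 difference was 2.51 ± 0.52 (SE, limma adjusted p = 0.186, with the block 0.00214). ZNF551, a zinc finger gene on chromosome 19, had 6, 5 and 9 clusters in the FLAG-SCAF8 inputs and 0, 0 and 1 in the parental inputs. MCL1, an anti-apoptotic BCL2 relative with a short-lived mRNA, had 4, 8 and 8 against 2, 0 and 1. ZNF644 had 14, 8 and 9 against 7, 1 and 0, and PSMD12, a proteasome lid subunit, had 3, 8 and 5 against 3, 0 and 0. In the raw numbers, the FLAG-SCAF8 lists were above the parental lists in all of these except for a tie in replicate 1 of PSMD12.

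The 5 genes with the smallest p in the downward direction were C21orf58, PCNT, FYN, SLC7A1 and TLE3. C21orf58 had 1, 0 and 0 clusters in FLAG-SCAF8 inputs 1, 2 and 3 and 9, 4 and 3 in the parental inputs (log2 difference -3.42 ± 0.67 SE, limma adjusted p = 0.186, with the block 0.000253). Its neighbour PCNT, which encodes the centrosome scaffold pericentrin, had 0, 1 and 0 against 10, 3 and 2. FYN, a Src-family kinase, had 4, 5 and 2 against 14, 9 and 8. SLC7A1, a cationic amino acid transporter, had 5, 8 and 6 against 22, 10 and 11, and TLE3, a Groucho-family corepressor, 4, 5 and 4 against 11, 11 and 14. These are low numbers of places per gene, and in replicate 1 the parental list was also the longer of the pair.

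For 1 higher and 2 lower genes, 1 recurrent site is shown in 30 nt with T in capitals (GRCh38, minus strand, 5′ to 3′). Each is the highest-scoring region of its gene with clusters in all 3 lists of 1 line and none of the other. Its contrast was thus set by the choice, and it does not locate the difference of the whole gene. The RFWD3 site lay in a coding exon and had clusters in all 3 FLAG-SCAF8 inputs and no parental one, and those of C21orf58 and SLC7A1 lay in introns and had clusters in all 3 parental inputs and no FLAG-SCAF8 one.
RFWD3, chr16:74661010-74661039: gagaccTTcaTcTTcaaaccacagTgTagg
C21orf58, chr21:46315488-46315517: agacTgcTcTgaagagaaggagggaccTTc
SLC7A1, chr13:29562155-29562184: gaacaTTcacTgTcaTcaggTgaaggacag

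Among genes of the CID and SCAF list, 5 of 8 were tested. SCAF8 and RPRD1B, a CID protein that binds polymerase II, were called higher with the block and none lower, 2 of 5 beside 1.7% of all genes tested. RPRD1B had 12, 12 and 6 clusters in FLAG-SCAF8 inputs 1, 2 and 3 and 19, 0 and 1 in the parental inputs, so its difference rests on replicates 2 and 3 (limma with the block, adjusted p = 0.018). SCAF4 had 3, 3 and 4 against 7, 2 and 1, with a log2 difference of -0.21 ± 0.47 (SE, limma adjusted p = 0.884). RPRD1A and RPRD2 had log2 differences of 0.09 and -0.38 with SEs of 0.75 and 0.93, and SCAF1, SCAF11 and PCF11 had too few clusters to be tested.

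The list of ATF4 targets and amino acid genes held the largest number of lower calls with the block, 4 of 11 genes tested, with 0 higher. Over all genes tested the shares were 2.75% lower and 1.7% higher. The gene lists were chosen with earlier results of these data known, so this count is not independent of the values. ATF4 is the transcription factor that turns on amino acid synthesis and uptake when amino acids run short. PHGDH, the first enzyme of serine synthesis, had 8, 0 and 0 clusters in FLAG-SCAF8 inputs 1, 2 and 3 and 15, 4 and 6 in the parental inputs (log2 difference -3.12, SE 0.87, limma adjusted p = 0.328, with the block 2.2e-06). PSAT1, the next enzyme, had 8, 2 and 2 against 15, 4 and 9 (with the block, limma adjusted p = 0.00187). SHMT2, which passes serine carbon to folate, had 5, 1 and 0 against 5, 4 and 3, and SLC7A5, a large neutral amino acid transporter, 3, 1 and 1 against 4, 6 and 6. None of these 4 passed without the block (limma adjusted p from 0.328 to 0.397). Per 10000 genic clusters SHMT2 and SLC7A5 were lower in 2 of 3 pairs and higher in replicate 1.

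The ATF4 gene itself had 5, 4 and 5 clusters in the FLAG-SCAF8 inputs and 3, 3 and 4 in the parental inputs. SLC3A2, the partner subunit of SLC7A5, had 6, 5 and 5 against 4, 0 and 1 and did not pass (limma adjusted p = 0.397, with the block 0.114). The sum over the list was not among the planned measures. Its clusters per 10000 were 67.8, 23.2 and 32.9 in FLAG-SCAF8 inputs 1, 2 and 3 and 66.9, 83.5 and 79.8 in the parental inputs. FLAG-SCAF8 replicate 1 was thus at the parental level and replicates 2 and 3 below it (mean difference -35.4, exact permutation p = 0.2; -53.5 without replicate 1 and -23 without replicate 2). The FLAG-SCAF4 inputs stood at 109, 109 and 120. The median log2 difference of the 11 tested genes, -0.12, was near that of all genes, -0.13.

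**Figure D4:**
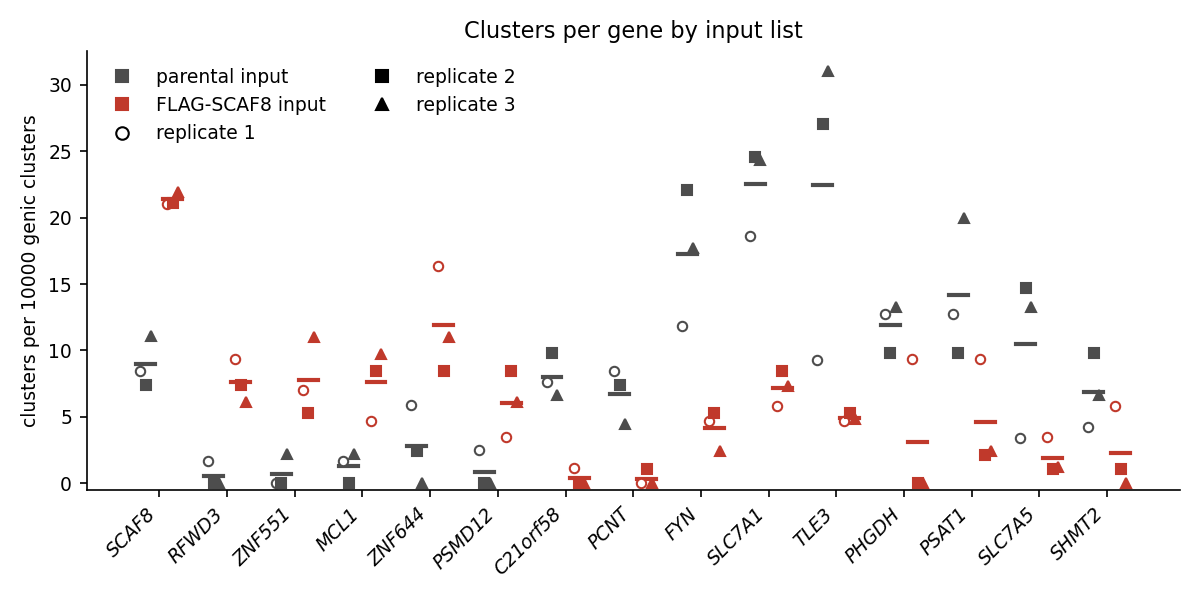
Clusters per 10000 genic clusters of the list (y axis) for SCAF8, the 5 genes with the smallest p in each direction and 4 genes of amino acid supply. Points are replicates and bars means; for PHGDH, PSAT1, SLC7A5 and SHMT2 the open circle of FLAG-SCAF8 replicate 1 lies above replicates 2 and 3 of its line.

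The remaining lists held few calls. Replication-dependent histones, whose mRNAs end in a stem-loop and have no poly(A) tail, had 4 genes tested, 0 higher and 2 lower with the block, beside 2.75% lower over all genes tested. They were H4C14 and H4C15. H4C14 had 2, 4 and 5 clusters in FLAG-SCAF8 inputs 1, 2 and 3 and 3, 13 and 17 in the parental inputs. H4C15 had 1, 1 and 2 against 2, 7 and 4. In exons H4C14 had 1, 1 and 1 against 2, 5 and 5, and H4C15 1, 1 and 2 against 2, 4 and 2. Their other clusters counted as intronic by the longest isoform, so not all of these places lie in histone mRNA. Histone genes share sequence, so the assignment between copies is uncertain. H4C14 and PHGDH were the 2 genes called lower with exonic clusters alone (limma adjusted p = 0.0335 for each).

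SR splicing factors had 15 genes tested, with a median log2 difference of 0.60. Summed over the list, FLAG-SCAF8 inputs 1, 2 and 3 had 162.5, 132.1 and 145.2 clusters per 10000. The parental inputs had 124.5, 147.4 and 135.1, so the lines overlapped. With the block 1 of the 15 genes, SRSF4, was called higher, beside 1.7% of all genes tested. It had 10, 12 and 11 clusters in FLAG-SCAF8 inputs 1, 2 and 3 and 12, 0 and 4 in the parental inputs. Its raw number in replicate 1 was thus the higher in the parental list. Cytoplasmic ribosomal protein genes had 46 tested, with a median of -0.36 and 1 higher call, RPL27A, near the share over all genes. Long noncoding RNAs had 7 tested, with 1 call in each direction, beside 1.7% higher and 2.75% lower over all genes tested. TUG1 was called higher, with 13, 13 and 12 clusters against 12, 2 and 1. FTX, a long RNA of the X chromosome, was called lower, with 17, 2 and 2 against 26, 4 and 6. With the block, hnRNP proteins (21 tested), translation factors (20), chaperones (16), spliceosome proteins (12), transcription elongation factors (7), cleavage and polyadenylation factors (6) and RNA polymerase II subunits (1, POLR2A) had 0 calls in either direction. Of these, SF3B3, a subunit of the U2 snRNP, had 22, 31 and 27 clusters in FLAG-SCAF8 inputs 1, 2 and 3 and 14, 5 and 8 in the parental inputs (log2 difference 1.08 ± 0.36 SE, limma adjusted p = 0.328, with the block 0.0793). CCNT1, the cyclin of the elongation kinase P-TEFb, had 4, 6 and 4 against 3, 0 and 0, and MDM2, the tested p53 target, had 13, 4 and 4 against 14, 2 and 2.

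None of the 10 genes with the most clusters over the 6 lists was called, with or without the block. DAZAP1, an RNA-binding protein gene, had 14, 33 and 30 clusters in FLAG-SCAF8 inputs 1, 2 and 3 and 30, 32 and 38 in the parental inputs. SFPQ, a paraspeckle protein gene, had 28, 31 and 25 against 30, 26 and 29, and HNRNPU, which encodes a nuclear matrix RNA-binding protein, had 44, 27 and 26 against 45, 13 and 14. RFC3, a clamp-loader subunit gene, had 41, 38 and 32 against 30, 13 and 14, and GPI and DDX17 had between 15 and 29 in all 6 lists. ENSG00000267053, a long noncoding RNA gene on chromosome 19, had 9, 74 and 42 against 10, 12 and 20, with its 2 highest counts in FLAG-SCAF8 inputs 2 and 3 (limma adjusted p = 0.753). NPIPB5, of a near-identical gene family whose copies cannot be told apart with certainty, had 42, 20 and 18 against 37, 11 and 17.

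DNAH17, an axonemal dynein heavy chain gene that the block called higher, was named after its values were seen, because its clusters lay in 2 lists. It had 0, 30 and 18 clusters in FLAG-SCAF8 inputs 1, 2 and 3 and 0 in all 3 parental and all 3 FLAG-SCAF4 inputs. The clusters ran on the gene's own strand, 18 in coding exons and 12 in introns in replicate 2 and 12 and 6 in replicate 3. In both lists the first lay about 19 kb inside the annotated start, at 19038 and 19068 nt. The fold against 0 is not given, and without replicates 2 and 3 there is nothing to compare.

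Joined across lists where they shared at least 1 nt, the clusters formed 24499 regions. Of these, 270 (1.1%) held a cluster in all 3 FLAG-SCAF8 inputs and no parental one, 68 (0.278%) the opposite, and 1135 were in all 6 lists. The parental lists of replicates 2 and 3 were the shortest, and with 4567 clusters from each list the order turned, to 91 and 135. The 270 regions lay in 236 genes; 40.4% were in 3' UTRs, 30.7% in coding exons and 15.6% in introns of coding genes. SCAF8 held 7 of them, the most of any gene, followed by SF3B3 with 3. Of the 68 parental regions, 61.8% were in introns of coding genes, 7.35% in 3' UTRs and 4.41% in coding exons.

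The FLAG-SCAF4 inputs held 63.3% of the 270 regions and 73.5% of the 68 in at least 1 list, and 98.8% of the regions in all 6 lists. The Jaccard index, the shared over the total covered length, averaged 0.274 within the FLAG-SCAF8 inputs, 0.233 within the parental inputs and 0.23 between lines. The excess within lines over between lines was 0.0231 (exact permutation test over 10 assignments, one-sided, p = 0.3), and it turned to -0.0186 without replicate 2 and -0.0166 without replicate 3. Replicates 2 and 3 were the most alike within each line, at 0.331 for FLAG-SCAF8 and 0.32 for the parental inputs, while the replicate 1 lists of both lines shared 0.275.

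Along the chromosomes, clusters were counted in windows of 5 Mb and tested in the 257 windows with at least 60 clusters, a comparison chosen after seeing the gene results. By limma, 6 windows were higher (2.33%) and 6 lower (2.33%), and with the replicate block 12 in each direction (4.67% each). The smallest p belonged to the end of chromosome 21, from 45 Mb on, which held 3, 4 and 3 clusters in FLAG-SCAF8 inputs 1, 2 and 3 and 39, 16 and 17 in the parental inputs. Its log2 difference was -3.08 ± 0.34 (SE, limma adjusted p = 0.000448). As a share of the list, it was 0.0328%, 0.0386% and 0.0333% against 0.312%, 0.35% and 0.335%. The lists did not overlap, and FLAG-SCAF8 replicate 1 lay with the other replicates of its line. The FLAG-SCAF4 inputs held 13, 2 and 4 clusters there, or 0.111%, 0.0391% and 0.0835%.

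The distal end of chromosome 21 differed in several neighbouring genes. MCM3AP, which encodes an mRNA export factor, had 1, 2 and 2 clusters in FLAG-SCAF8 inputs 1, 2 and 3 and 8, 4 and 3 in the parental inputs, and C21orf58 and PCNT lie beside it. With C21orf58, the gene with the most clusters, taken out, the window still held 2, 4 and 2 against 29, 12 and 13. The stretch from 35 to 45 Mb took 0.437%, 0.618% and 0.644% of the FLAG-SCAF8 lists and 1.02%, 1.12% and 1.5% of the parental lists, also without overlap. The FLAG-SCAF4 inputs lay at 0.529%, 0.645% and 0.605%, close to the FLAG-SCAF8 values and below all parental lists. Its window from 35 to 40 Mb was among those called lower (limma adjusted p = 0.0274). DYRK1A, a kinase gene in that window, had 5, 3 and 3 clusters against 20, 5 and 4. Below 35 Mb the shares were 1.53%, 1.42% and 1.54% against 1.49%, 2.41% and 1.89% and overlapped.

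**Figure D5:**
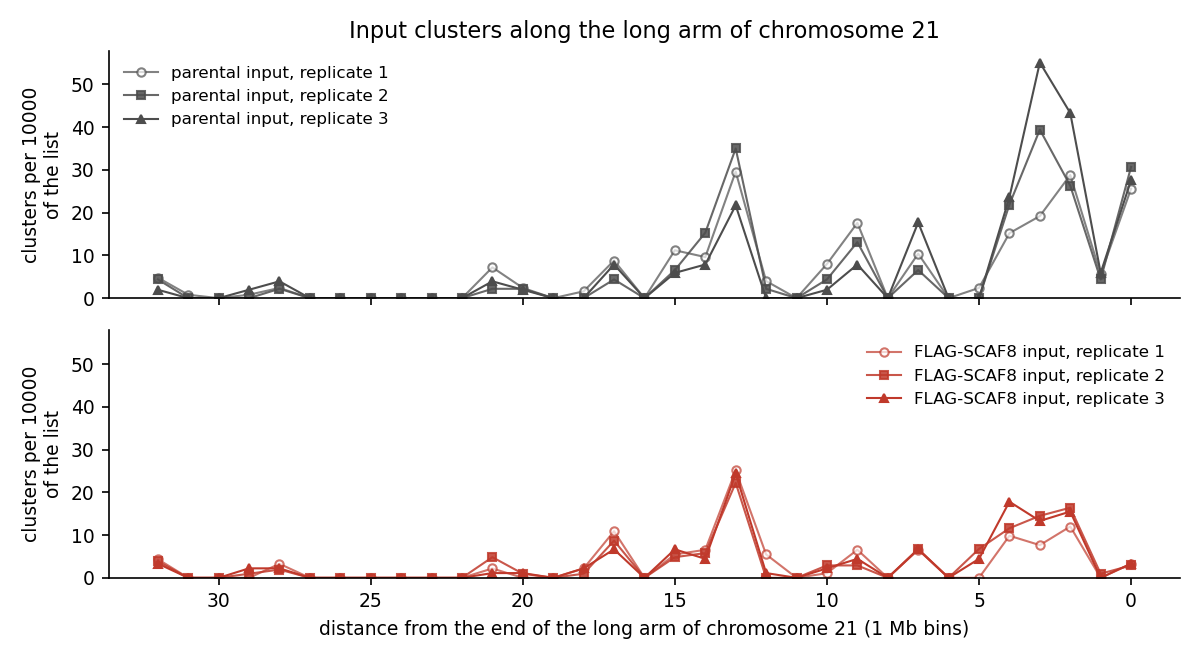
Clusters per 10000 of the list (y axis) in 1 Mb bins along the long arm of chromosome 21, by distance from its end (x axis), for the parental (top) and FLAG-SCAF8 (bottom) inputs. In the last bin all 3 parental inputs stood above all 3 FLAG-SCAF8 inputs, and over the window from 45 Mb the clusters numbered 39, 16 and 17 against 3, 4 and 3.

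Windows on the long arm of chromosome 16 lay the other way. From 65 to 70 Mb, 31 genes together held 24, 33 and 29 clusters in FLAG-SCAF8 inputs 1, 2 and 3 and 15, 6 and 4 in the parental inputs (log2 difference 1.39 ± 0.26 SE, limma adjusted p = 0.0157). From 70 to 75 Mb the counts were 52, 64 and 52 against 32, 7 and 15, and without SF3B3, the gene with the most clusters, 30, 32 and 25 against 18, 2 and 7. RFWD3 lies in that window too. From 65 to 70 Mb the FLAG-SCAF4 inputs held 0.307%, 0.215% and 0.104% of their lists, against 0.12%, 0.131% and 0.0787% in the parental lists. From 70 to 75 Mb the values were 0.478%, 0.43% and 0.23% against 0.256%, 0.153% and 0.295%. In both windows FLAG-SCAF4 replicates 1 and 2 lay above all parental lists and replicate 3 within their range. The end of chromosome 19 from 55 Mb, rich in zinc finger genes, took 0.589%, 0.645% and 0.605% of the FLAG-SCAF4 lists, below all parental lists. It held 121, 150 and 141 clusters in the FLAG-SCAF8 inputs against 87, 32 and 43 in the parental inputs over 56 genes (limma adjusted p = 0.0274). The window from 75 to 80 Mb on chromosome 9, which holds PSAT1, was called lower with 15, 3 and 4 against 30, 10 and 20, and PSAT1 supplied 40 of its clusters. Without replicate 2 the calls fell to 0 higher windows and 1 lower one, and the end of chromosome 21 was called lower with every replicate left out in turn (limma adjusted p up to 0.0243).

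Few cell type markers were seen. Of 10 HEK293 markers, 4 had clusters: VIM with 4, 4 and 3 in FLAG-SCAF8 inputs 1, 2 and 3 and 3, 0 and 2 in the parental inputs, and SOX4, KRT8 and KRT18 with 0 or 1 per list. NEFM, NEFL, INA, PAX2, LHX1 and SOX11 were at 0. None of the 9 blood or 7 liver markers had a cluster in any of the 6 lists.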

How the data were processed

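The authors removed adapters (Trim Galore, cutadapt), aligned reads to GRCh38 with Bowtie2 2.2.9, which does not splice, removed duplicates (Picard) and called clusters with PARalyzer after joining soluble and chromatin reads of a replicate. The deposited lists give cluster positions and an unnamed score between 0.5 and 1, with no read counts. Deposited scores served only to rank clusters. No cluster lay beyond a chromosome end of the reference or on the mitochondrial genome.

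Clusters were assigned by midpoint and strand to the longest isoform of GENCODE 44 genes. List measures were compared by two-sided exact permutation of 3 against 3 lists, and clusters per gene or window by limma 3.58.1 (R 4.3.3) on log2((clusters + 0.5) / genic clusters x 10000), trend on, with at least 10 clusters per gene, or 60 per window (scaled to the clusters of all windows), over the 6 lists and a Benjamini-Hochberg adjusted p of 0.05. An alternative kept the replicate number as a block. The tests were tested on simulated data. For limma these were independent random (Poisson) counts without a replicate effect, so they do not give its error rate on these lists. Depth in reads is unknown, and lists held 4567 to 12493 clusters. Named genes were SCAF8 and its family list, up to 10 per direction that passed with 1 sign in all 3 replicate numbers (by size) or else the 5 with the smallest p, the 10 with the most clusters and up to 4 per gene list. Other genes called with the block were named after their values were seen. Members and lists were chosen with earlier results of these data known. Same-numbered lists deviated together from their group means (r = 0.397, 0.149 and 0.176 across genes), so the numbers were taken to pair the lists. Replicates 2 and 3 crossed were as alike (r = 0.195 and 0.147) and 1 with 2 or 3 was below 0 (-0.287 to -0.211), so this sets replicate 1 apart and does not separate 2 from 3. The sources call the replicates biological, and p-values measure only the spread between these lists. In limma with the block that spread is mostly a variance pooled over genes, not that of the 3 pairs of 1 gene. For RFWD3 the SE rose from 0.52 to 0.59 with the block, while the unadjusted limma p fell from 0.000312 to 2.6e-05. A small p with the block is therefore not strong evidence for a single gene.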

Additional observations from a re-analysis of the deposited data

How the results depend on the processing

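Of the values that answer a comparison, 153 were kept under an alternative, 25 counts moved, 9 values reversed and 3 passed only under the alternative. Kept meant the same direction for list measures, since an exact p over 3 lists a group could not pass. For measures compared by exact permutation, the replicate block leaves the mean difference unchanged. Those block values could not reverse, and they are counted among the 153. For single genes and windows it also meant the same side of the threshold, and for calls and regions a count within 1.5 times. Sizes moved also where the direction was kept. At equal list length the intron difference went from -13.1 to -8.23, the exon to intron balance from 0.90 to 0.57, the coding exon share from 6.55 to 3.69, SCAF8 coding clusters from 14 to 1.33 and genes with a cluster from 741.7 to 143.7 (250.5 to 1472 with a replicate left out). With the replicate block, calls rose to 21 genes higher and 34 lower, and SCAF8 passed with a log2 difference of 1.17. Leaving out 1 replicate number gave 0 to 2 genes higher and 0 to 19 lower, with 2 and 19 without replicate 1; a pseudocount of 1 gave 1 lower. Exonic clusters alone, added after seeing the data, gave 1 higher and 2 lower gene, with the block 1 and 9, and 2.72 for SCAF8. In the highest-scoring clusters at equal list length the SCAF8 difference reversed to -0.11, regions in the FLAG-SCAF8 inputs alone fell to 91 and those in the parental inputs alone rose to 135, and the downstream share reversed to -0.0219. With 2 of 2 lists against 0 of 2, the regions ranged from 600 to 2091 and from 263 to 449. The noncoding exon share reversed to 0.212 without replicate 2 (range -0.867 to 0.212) and to 0.24 at or above the median score. The downstream share ranged from -0.0364 to 0.0956 with replicates left out, -0.0241 without replicate 2. The Jaccard gap reversed without replicate 2 (-0.0186) and replicate 3 (-0.0166), against 0.0924 without replicate 1. The balance against FLAG-SCAF4 ranged from -0.16 to 0.25, reversing without replicate 1. Windows called, added after seeing the data, were 12 higher and 12 lower with the block, and 0 to 25 higher and 1 to 38 lower with a replicate left out. The cause was not tested for any of these. With no cluster on the mitochondrial genome, leaving it out gave no value, and equal list length gives none for the number of clusters.

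Limits: 3 lists a group cannot reach an exact p under 0.1, the lists hold no read depth, lists range from 4567 to 12493 clusters, and low numbers of clusters per gene bound what limma can call. A zero in a short list scales to a higher floor than in a long one.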
